A study of Sus scrofa with 8 samples.

Results

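The transcripts of the translation initiation factors (EIF) and translation elongation factors (EEF) were followed in heart tissue of Tibetan and Yorkshire pigs kept at highland or lowland. Members were the rows of the deposited expression table whose gene name starts with EIF or EEF, whose locus is not on chromosome X or Y, and which reached at least 1 FPKM (fragments per kilobase of transcript, scaled to the number of mapped fragments) in at least 2 of the 8 libraries. Of 62 rows with such a name, 4 lie on X or Y and 58 do not. Of these 58, 53 passed the filter and 5 did not, out of 11913 genes of the whole table that passed it and 18975 that are listed. The rule itself uses the name, the position and a minimum level, but the gene family was proposed with earlier results of these data known, and 1 member, EIF5, reached the minimum only in TH.

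The 4 groups were Tibetan pigs at highland (TH), Tibetan pigs at lowland (TL), Yorkshire pigs at highland (YH) and Yorkshire pigs at lowland (YL). All were male pigs aged 6 months, and the labels name no transgene or drug. Each group had 2 libraries, and each library was made from RNA of 4 pigs pooled, so the spread within a group is that between 2 pools. The descriptions of both YL libraries point to the file of TL, and these libraries were taken as YL by their titles, breed and column names. In bulk tissue, fewer cells of a type and less RNA per cell cannot be told apart.

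An estimated 15687000 to 26723000 reads per library fell on genes, from the scaled count columns divided by the commonest low value of each library. The defining transcripts of heart muscle were present in all 8 libraries, with 8 of 10 cardiomyocyte markers found at a summed 13410 to 35970 FPKM and 0 of these 8 at zero throughout. Library YL2 also held kidney transcripts: 10 of 12 kidney markers were found, and their sum was 4782 FPKM in YL2 against 0.219 to 17.0 in the other 7. Library TH1 stood apart in another way, with 87.6% of its summed FPKM on the mitochondrial genome against 57.7% to 80.3% in the other 7.

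Protein synthesis starts when the small ribosomal subunit, carrying initiator tRNA bound to eIF2 and GTP, is recruited to the capped 5′ end of an mRNA by the eIF4 proteins and eIF3, scans to the start codon with eIF1, and is joined by the large subunit with eIF5 and eIF5B. The elongation factors eEF1 and eEF2 then deliver aminoacyl-tRNA and move the ribosome along the mRNA. The pathway is controlled in many tissues, the heart included, by the phosphorylation of eIF2 by stress kinases and by the binding of the cap protein eIF4E by the 4E-BP repressors, which the kinase complex mTORC1 releases.

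The members differed widely in level, as the plot of FPKM by member shows. EIF1, which guards the choice of the start codon, was the highest at a mean of 582.9 FPKM. EEF1G, a subunit of the eEF1B exchange complex, followed at 581.5 FPKM and EEF2, the translocation factor, at 467.5 FPKM. The next were EIF4A2 (246 FPKM), EEF1B2 (239 FPKM), EIF3K (216 FPKM), EIF5A (188 FPKM), EIF3H (171 FPKM), EIF3E (139 FPKM) and EIF4H (124 FPKM). EIF5 was the lowest member at a mean of 0.945 FPKM. FPKM is scaled by transcript length, so these levels can be set beside each other, as far as the gene models are complete. Some models are short: the row of EIF4B spans 1153 bases, EIF5 1309, EIF2B4 1362 and EIF2AK4 2553. Rows that overlap another listed gene, with which reads could be shared, include EIF3J, EIF3M, EIF5B, EEF2K, EIF2AK1, EIF2S1, EIF2B1, EIF4A1 and EIF4A2. EEF1A1 and EEF1A2, the factors that deliver aminoacyl-tRNA, and EIF3B, EIF3C, EIF3F and EIF5A2 are not analysed here.

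**Figure D1:**
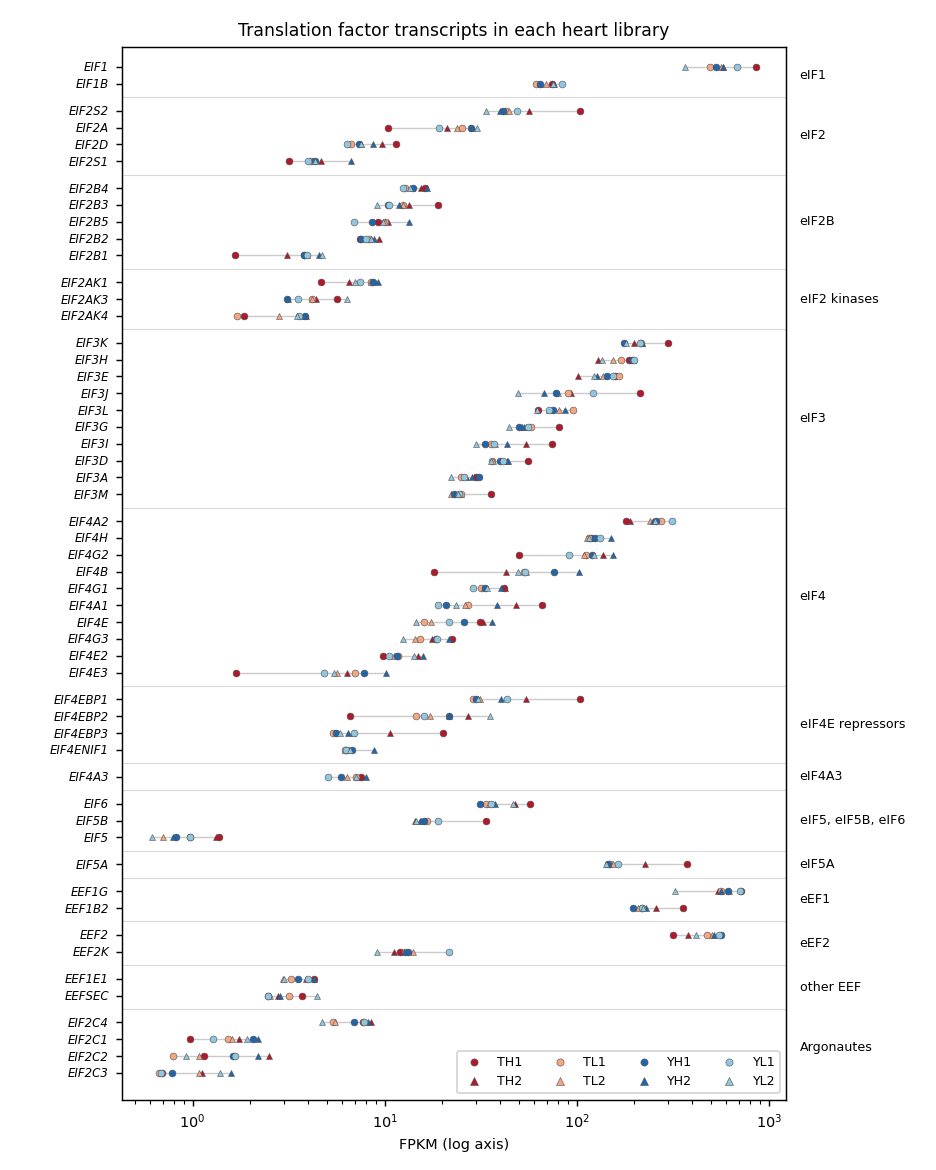
FPKM of each of the 53 members (rows, grouped by role, log axis) in each of the 8 libraries. Circles are replicate 1 and triangles replicate 2 of TH (dark red), TL (light orange), YH (dark blue) and YL (light blue), and the grey line joins the lowest and highest library. EIF1, EEF1G and EEF2 lie furthest right, and TH1 (dark red circles) is most often at one end of a row.

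Transcripts of subunits of 1 complex were not at 1 level. Among the 10 subunits of eIF3, the scaffold that holds the small subunit and the mRNA, means ran from 25.3 FPKM for EIF3M to 216 FPKM for EIF3K, 8.53 times as high. The beta subunit of eIF2, EIF2S2, averaged 51.6 FPKM and the alpha subunit, EIF2S1, which the stress kinases phosphorylate, 4.44 FPKM. Within the 10 eIF4 members, means ran from 6.14 FPKM for EIF4E3 to 246 FPKM for EIF4A2. The 5 subunits of eIF2B, the exchange factor of eIF2, lay closer together, at 3.70 FPKM for EIF2B1 to 14.4 FPKM for EIF2B4.

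The breeds were compared at each altitude (TH to YH, TL to YL), and the altitudes within each breed (TH to TL for Tibetan and YH to YL for Yorkshire pigs). Differences were tested with limma on log2(FPKM + 1) in 1 fit of all 8 libraries, over all 11913 genes. The rule for a call was a Benjamini-Hochberg adjusted p below 0.01 together with a log2 fold change beyond 1 in either direction. No member was called in any comparison: 0 of 53 in TH to YH (0.0336% of all genes tested were called), 0 in TL to YL (0.00839%), 0 in TH to TL (0.0504%), 0 in YH to YL (0%) and 0 in the interaction, which subtracts the altitude difference of Yorkshire pigs from that of Tibetan pigs (0.0336%). The smallest adjusted p of a member by limma was 0.152 in TH to YH (EIF4B), 0.677 in TL to YL (EIF3L), 0.268 in TH to TL (EIF4EBP3), 0.784 in YH to YL and 0.371 in the interaction (EIF4B). An exact permutation test of 2 libraries against 2 cannot give a two-sided p under 0.333. What follows therefore describes the levels in the libraries, and gives limma's fold changes with their standard errors (SE), none of which passed the test.

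In TH to YH, the members that stood furthest apart were the repressors EIF4EBP1 and EIF4EBP3, EIF5A and EIF4A1 on the TH side and EIF4B, EIF4E3 and EIF2A on the YH side. Of the 53 members, 17 had both TH libraries above both YH libraries (25.2% of all genes tested) and 13 had both below (27.3%), so 32.1% and 24.5% of the members. Without the genes that reached 1 FPKM in 1 group only, among them EIF5, which passed the filter through TH and so had to differ, the counts were 16 and 13 of 52 (25% and 27.2% of 11771 genes). At an unadjusted p under 0.05 by limma, 7 members were higher in TH (7.71% of all genes) and 5 lower (8.47%), 22.6% of the members beside 16.2% of all genes. The median log2 fold change was 0.05 over the members and -0.03 over all genes. Leaving out 1 library at a time gave 3 to 23 members at an unadjusted p under 0.05 in place of 12: 3 without TH1 (9.17% of all genes), 23 without TH2 (29.2%), 3 without YH1 (7.33%), 5 without YH2 (8.85%), 5 without either TL library (11.2%) and 15 without either YL library (22.7%). With each library scaled to the same FPKM sum, which moves the median of all genes to -0.50, 0 members were above and 14 below (1.15% and 38.7% of all genes), and the log2 fold change of 24 of the 28 members above 0 became negative. At an unadjusted p under 0.05 there were then 0 members higher and 5 lower (7.17% of all genes in all).

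In TH to TL, which shares the TH libraries with the comparison before, most members that stood apart were on the TH side, again with EIF4EBP1, EIF4EBP3, EIF4A1 and EIF5A, and with the cap-binding protein EIF4E. Here 27 members had both TH libraries above both TL libraries (24.0% of all genes tested) and 8 had both below (24.5%), which is 50.9% and 15.1% of the members, or 26 and 8 of 52 without the genes that reached 1 FPKM in 1 group only (23.8% and 24.5%). At an unadjusted p under 0.05 by limma, 9 members were higher in TH (5.81% of all genes) and 1 lower (5.53%). The median log2 fold change was 0.17 over the members and -0.02 over all genes. The split of 27 and 8 depended on the scaling: it was 21 and 9 with median-ratio scaling (20.0% and 28.9% of all genes), and 2 and 8 with equal FPKM sums (2.05% and 24.6%), which turned 26 of the 37 log2 fold changes above 0 negative and left 0 members at an unadjusted p under 0.05 (2.46% of all genes). Leaving out 1 library at a time gave 1 to 20 members at an unadjusted p under 0.05 in place of 10: 5 without TH1 (8.34% of all genes), 20 without TH2 (22.9%), 1 without TL1 (4.75%), 3 without TL2 (5.02%), 6 without YH1 (8.77%) or YH2 (8.75%) and 11 without either YL library (17.1%).

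In TL to YL the members lay close together. At an unadjusted p under 0.05 by limma there were 0 members (8.94% of all genes, 5.9% higher in TL and 3.04% lower), the log2 fold changes ran from -0.56 to 0.39, and their interquartile range was 0.207 beside 0.516 over all genes. Both TL libraries were above both YL libraries in 7 members (23.8% of all genes tested) and below in 6 (17.8%). The median log2 fold change was -0.01 over the members and 0.02 over all genes. With median-ratio scaling the counts were 5 and 11 (19.7% and 19.4% of all genes), and with equal FPKM sums 0 and 5 (6.88% and 10% of all genes). Leaving out YL1 gave 2 members at an unadjusted p under 0.05 (25.5% of all genes), leaving out YL2 gave 1 (9.72%) and leaving out any other library 0. The lowest value belonged to EIF4EBP2, whose libraries overlapped.

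In YH to YL, EIF4B, EIF4E and EIF4E3 had the largest positive differences. Both YH libraries were above both YL libraries in 11 members (21.9% of all genes tested) and below in 2 (14.4%). At an unadjusted p under 0.05 by limma, 1 member was higher in YH (4.39% of all genes) and 0 lower (1.58%), in all 5.97% of genes, and that member was EIF4E. The median log2 fold change was 0.14 over the members and 0.03 over all genes, and without YL2, the library with kidney transcripts, it was 0.06 and 0.06. With median-ratio scaling the counts above and below were 9 and 6 (19.7% and 14.7% of all genes), and with equal FPKM sums 0 and 0 (10.3% and 1.67%), with 0 members at an unadjusted p under 0.05 (3.48% of all genes). Leaving out 1 library at a time gave 0 to 5 members at an unadjusted p under 0.05: 5 without YL1 (25.3% of all genes), 3 without TH1 (9.12%) or TH2 (9.07%), 2 without YH1 (3.84%), 1 without YL2 (5.45%), and 0 without YH2 (2.18%) or either TL library (3.78%). In the interaction, 4 members were positive and 2 negative at that level (3.78% and 7.16%, in all 10.9% of genes). That count of 6 was 14 without TH2 (22.8% of all genes), 3 without TH1 (8.01%), 2 without YH2 (6.54%), 1 without TL1 (5.82%), TL2 (5.41%) or YH1 (5.97%), 6 without YL1 (24.9%) and 5 without YL2 (12.8%), and with equal FPKM sums it was 1 (3.4%).

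**Figure D2:**
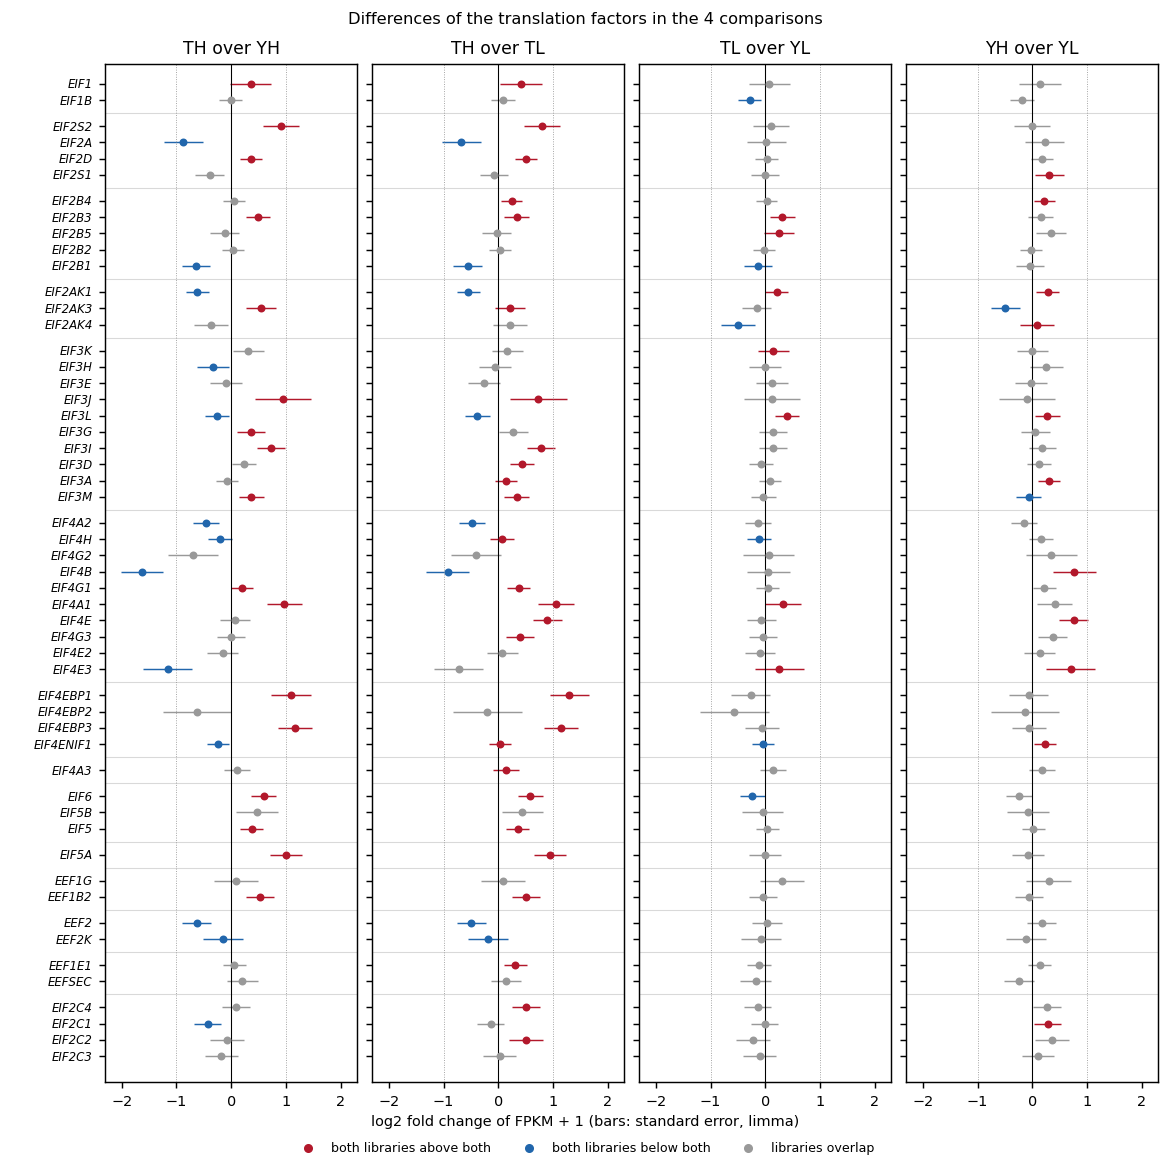
Log2 fold change of FPKM + 1 for each member (rows, in the order of the plot of levels) in the comparisons TH over YH, TH over TL, TL over YL and YH over YL, with the standard error from limma. Red points have both libraries of the first group above both of the second, blue points both below, and grey points overlap. Points spread more widely in the panels with TH (from -1.63 to 1.30) than in TL over YL (from -0.56 to 0.39), and no member passed the test in any panel.

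The eIF4 proteins form the complex that reads the cap and unwinds the 5′ end of the mRNA. EIF4E, the protein that binds the cap, was at 31.5 and 32.6 (TH), 16.1 and 17.5 (TL), 25.9 and 36.1 (YH) and 21.7 and 14.5 FPKM (YL). Every highland library of either breed was above every lowland library. The log2 fold change was 0.89 (SE 0.27, adjusted p = 0.305 by limma) in TH to TL and 0.75 (SE 0.27, adjusted p = 0.784) in YH to YL, and 0.07 and -0.08 between the breeds. Only 3 members, EIF4E, EIF3A and EIF2B4, had all 4 highland libraries above all 4 lowland ones (1.63% of all genes tested), and 0 had all below (1.06%). With median-ratio scaling, EIF4E kept this order, at 26.7 to 36.5 FPKM against 16.3 to 21.0, while EIF3A and EIF2B4 overlapped, and with equal FPKM sums all 3 overlapped. Without YL2 the log2 fold change of YH to YL was 0.48, and with equal FPKM sums that of TH to TL was 0.28.

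EIF4E3, a cap-binding paralog of EIF4E, had another pattern, at 1.69 and 6.36 (TH), 7.04 and 5.67 (TL), 7.84 and 10.2 (YH) and 4.85 and 5.44 FPKM (YL). Its lowest library was TH1 and its highest YH2, and TH was below YH without overlap. Its log2 fold change in TH to YH was -1.16 (SE 0.45, adjusted p = 0.282 by limma) and it was -0.44 without TH1 and -1.89 without TH2. These levels rest on an estimated 23 to 153 reads per library. EIF4E2, another cap-binding paralog of EIF4E, was at 9.79 and 14.9 (TH), 11.8 and 11.1 (TL), 11.6 and 15.9 (YH) and 10.6 and 14.3 FPKM (YL), and its groups overlapped in all 4 comparisons. The ratio of EIF4E3 to EIF4E was 0.0535 in TH1, 0.195 in TH2 and 0.224 to 0.438 in the other 6 libraries.

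EIF4B, the cofactor that stimulates the eIF4A helicase, had the smallest adjusted p of the members in TH to YH. It was at 18.2 and 42.7 (TH), 53.5 and 54.3 (TL), 76.1 and 103 (YH) and 54.1 and 49.6 FPKM (YL). Both TH libraries were the lowest of the 8 and both YH libraries the highest, and the TL and YL libraries lay together between them. The log2 fold change was -1.63 (SE 0.39, adjusted p = 0.152 by limma) in TH to YH, -0.92 (SE 0.39) in TH to TL, 0.77 (SE 0.39) in YH to YL and 0.06 (SE 0.39) in TL to YL. Without TH1 the first was -1.04 and the second -0.33, and without TH2 -2.23 and -1.52. The row (ENSSSCG00000021278, chr5:18745075-18746227 of the build Sscrofa10.2, as are all positions here) held an estimated 311 to 1786 reads per library. EIF4H, which does similar work, was at 119 and 120.1 (TH), 116 and 113 (TL), 125 and 152 (YH) and 132 and 116 FPKM (YL). It varied little, with the highest library 1.34 times the lowest, and the ratio of EIF4B to EIF4H ran from 0.152 in TH1 and 0.356 in TH2 to 0.610 in YH1 and 0.680 in YH2.

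The helicases EIF4A1 and EIF4A2, which are close paralogs, stood at opposite ends in TH. EIF4A1 was at 66.2 and 48.4 (TH), 27.1 and 26.3 (TL), 20.8 and 38.5 (YH) and 19.1 and 23.5 FPKM (YL). EIF4A2 was at 181 and 189.5 (TH), 277 and 239.8 (TL), 259.9 and 251 (YH) and 313 and 257 FPKM (YL). Both TH libraries were the highest of the 8 for EIF4A1 and the lowest of the 8 for EIF4A2. The log2 fold change of EIF4A1 was 0.97 (SE 0.33, adjusted p = 0.240 by limma) in TH to YH and 1.06 (SE 0.33, adjusted p = 0.314) in TH to TL. The value in TH to YH was 0.54 without YH1, 0.75 without TH1 and 0.00 with equal FPKM sums, and that in TH to TL was 0.41 with equal sums. In EIF4A2 the log2 fold changes in TH to YH and TH to TL were -0.46 (SE 0.23) and -0.47 (SE 0.23), or -1.42 and -1.09 with equal FPKM sums. The ratio of EIF4A1 to EIF4A2 within a library, which no scaling of the library changes, was 0.366 and 0.255 in the TH libraries and at most 0.153 elsewhere, down to 0.0609 in YL1. The sum of both was 238 to 333 FPKM. The row of EIF4A1 (ENSSSCG00000017957, chr12:55300309-55305775) overlaps a snoRNA gene, and that of EIF4A2 (ENSSSCG00000011803, chr13:133973436-133994801) overlaps snoRNA genes and RFC4.

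The scaffold EIF4G1, which bridges the cap protein, the helicase and eIF3, was at 42.1 and 42.2 (TH), 31.6 and 32.9 (TL), 33.1 and 40.5 (YH) and 28.9 and 33.98 FPKM (YL). Its TH libraries were the highest of the 8, by a log2 fold change of 0.37 (SE 0.21, adjusted p = 0.545 by limma) in TH to TL, or -0.21 with equal FPKM sums, and with median-ratio scaling they overlapped with the other 6. EIF4G2, a scaffold without the eIF4E binding site, was at 50.4 and 138 (TH), 113 and 109.9 (TL), 119.9 and 154 (YH) and 91.8 and 124 FPKM (YL). TH1 was its lowest library and TH2 its second highest, so its groups overlapped. EIF4G3 was at 22.6 and 17.6 (TH), 15.3 and 14.4 (TL), 18.5 and 21.7 (YH) and 18.7 and 12.5 FPKM (YL), with TH above TL (0.40, SE 0.26, or 0.23 without TH1 and -0.15 with equal FPKM sums) and overlap in the other comparisons. The ratio of EIF4G1 to EIF4G2 was 0.836 in TH1 and 0.263 to 0.314 in all other libraries, TH2 included.

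The 4E-BP repressors hold eIF4E away from eIF4G until mTORC1 phosphorylates them. EIF4EBP1, the best studied of them, was at 104 and 54.6 (TH), 29.01 and 31.3 (TL), 30.04 and 40.5 (YH) and 43.5 and 30.6 FPKM (YL). EIF4EBP3 was at 20.1 and 10.7 (TH), 5.41 and 6.81 (TL), 5.60 and 6.43 (YH) and 6.91 and 5.83 FPKM (YL). Both TH libraries were above the other 6 in both genes, with TH1 well above TH2. The log2 fold change of EIF4EBP1 was 1.09 (SE 0.36, adjusted p = 0.229 by limma) in TH to YH and 1.30 (SE 0.36, adjusted p = 0.272) in TH to TL. That of EIF4EBP3 was 1.16 (SE 0.31, adjusted p = 0.176) and 1.15 (SE 0.31, adjusted p = 0.268). Without TH1 these values were 0.63 and 0.84 for EIF4EBP1 and 0.74 and 0.72 for EIF4EBP3. In TL to YL the log2 fold changes were -0.27 and -0.05, and the first was -0.02 without YL1 and -0.51 without YL2. With equal FPKM sums the TH to YH values were 0.11 and 0.21, beside a median of -0.50 over all genes, and the TH to TL values 0.63 and 0.45, beside -0.27. The rows are ENSSSCG00000022301, chr15:55557784-55560890 and ENSSSCG00000020835, chr2:148247724-148249563.

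EIF4EBP2, the third repressor, did not share this pattern, at 6.61 and 27.3 (TH), 14.6 and 17.2 (TL), 21.5 and 21.7 (YH) and 15.95 and 35.5 FPKM (YL). Its lowest library was TH1 and its highest YL2, and its groups overlapped in all 4 comparisons. Together the 3 repressors came to 131 and 92.6 FPKM in TH and 49 to 72 FPKM in the other 6 libraries. For each FPKM of EIF4E there were 4.15 and 2.84 of the repressors in the TH libraries, 3.05 and 3.15 for TL, 2.21 and 1.9 for YH, and 3.06 and 4.97 for YL. By this ratio YH was the lowest and the TH libraries lay on either side of TL. EIF4ENIF1, which carries eIF4E into the nucleus, stayed between 6.24 and 8.78 FPKM.

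**Figure D3:**
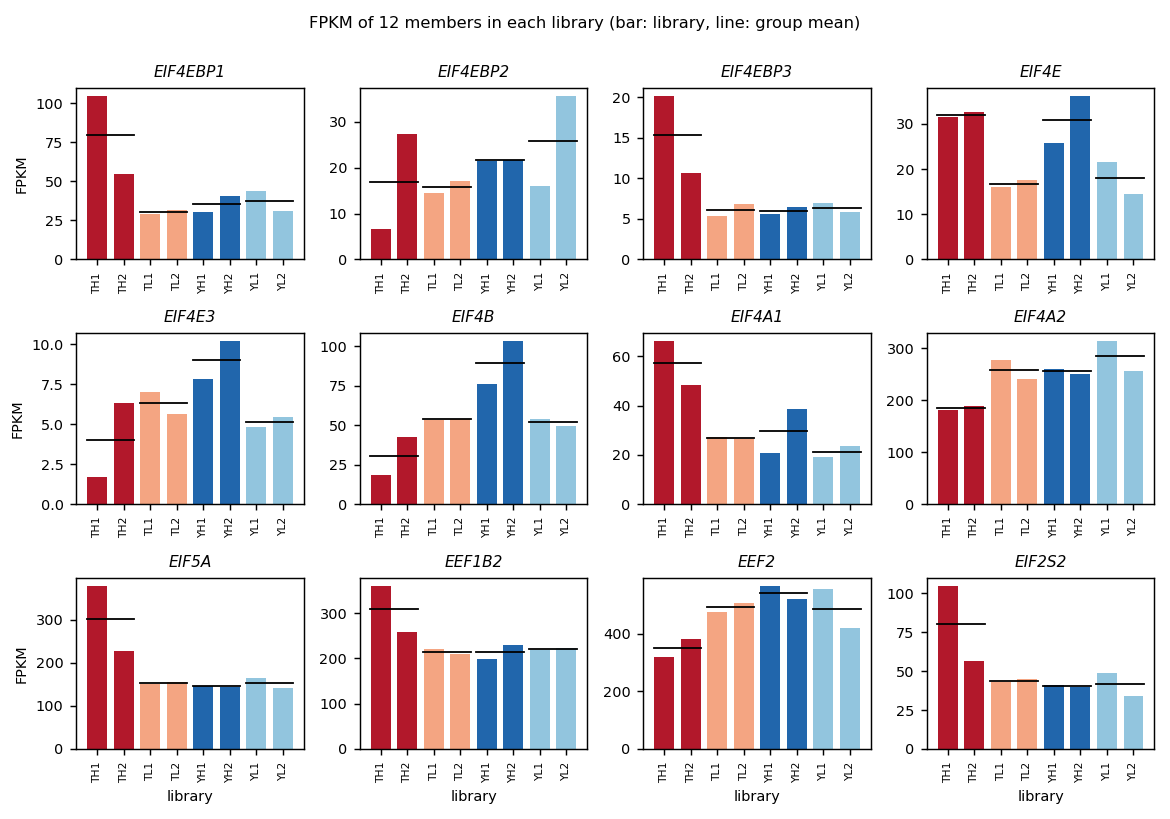
FPKM of 12 members in each library. Each bar is 1 library, coloured by group, and each black line is the mean of the 2 libraries of a group. EIF4EBP1, EIF4EBP3, EIF4A1, EIF5A, EEF1B2 and EIF2S2 are highest in both TH libraries, EIF4A2 and EEF2 are lowest there, and EIF4E is higher in both highland groups.

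The eIF2 complex brings the initiator tRNA. EIF2S2 was at 105 and 56.3 (TH), 42.98 and 44.7 (TL), 41.3 and 39.8 (YH) and 48.95 and 33.9 FPKM (YL), with both TH libraries above the other 6. Its log2 fold change was 0.91 (SE 0.33, adjusted p = 0.263 by limma) in TH to YH and 0.79 (SE 0.33, adjusted p = 0.440) in TH to TL, or 0.46 and 0.35 without TH1 and -0.06 and 0.16 with equal FPKM sums. EIF2S1 was at 3.18 and 4.68 (TH), 4.14 and 4.19 (TL), 4.36 and 6.67 (YH) and 3.98 and 4.35 FPKM (YL), with YH above YL by 0.31 (SE 0.26), or 0.57 without YH1 and 0.05 without YH2. EIF2A, a separate protein that can bring initiator tRNA without GTP, was at 10.4 and 21.2 (TH), 25.2 and 23.8 (TL), 28.1 and 28.5 (YH) and 19.2 and 30.2 FPKM (YL). TH1 was the lowest, and TH was below YH by a log2 fold change of -0.88 (SE 0.36, adjusted p = 0.298 by limma), or -0.40 without TH1, -1.36 without TH2 and -1.52 with equal FPKM sums. EIF2D, another such protein, was at 11.4 and 9.71 (TH), 6.67 and 7.56 (TL), 7.38 and 8.65 (YH) and 6.40 and 7.56 FPKM (YL), with TH above the other 6 libraries.

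Among the 5 subunits of eIF2B, EIF2B1 and EIF2B3 stood apart in TH in opposite directions. EIF2B1 was at 1.66 and 3.11 (TH), 3.82 and 3.93 (TL), 3.82 and 4.55 (YH) and 3.95 and 4.74 FPKM (YL). Its 2 TH libraries were the lowest, with -0.65 (SE 0.26, adjusted p = 0.295 by limma) in TH to YH and -0.33 without TH1. EIF2B3 was at 18.9 and 13.5 (TH), 12.5 and 12.4 (TL), 10.4 and 11.8 (YH) and 10.6 and 9.17 FPKM (YL). It was the only member with all 4 Tibetan libraries above all 4 Yorkshire libraries (4.57% of all genes tested), and 0 had all below (3.47%). It was higher by 0.49 (SE 0.23) and 0.31 (SE 0.23), and these values were -0.36 and -0.02 with equal FPKM sums. Without TH1 the first was 0.26. EIF2B5, the catalytic subunit, was at 9.20 and 10.4 (TH), 10.01 and 10.04 (TL), 8.56 and 13.4 (YH) and 6.97 and 9.75 FPKM (YL), with TL above YL by 0.25 (SE 0.27), which was 0.04 without YL1, 0.47 without YL2 and -0.09 with equal FPKM sums. EIF2B2 stayed between 7.42 and 9.33 FPKM and EIF2B4 between 12.4 and 16.7 FPKM.

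The kinases that phosphorylate eIF2 under stress were low. EIF2AK1, the kinase that answers to heme shortage, was at 4.65 and 6.49 (TH), 8.46 and 8.53 (TL), 8.71 and 9.27 (YH) and 7.45 and 7.01 FPKM (YL). TH was below all other libraries, with a log2 fold change of -0.62 (SE 0.21, adjusted p = 0.242 by limma) in TH to YH and -0.55 (SE 0.21, adjusted p = 0.399) in TH to TL, or -0.42 and -0.34 without TH1. With equal FPKM sums the first was -1.04. EIF2AK3 (PERK), the kinase of the endoplasmic reticulum, was at 5.63 and 4.41 (TH), 4.17 and 4.21 (TL), 3.11 and 3.13 (YH) and 3.55 and 6.38 FPKM (YL). Both YH libraries were the lowest, with -0.49 (SE 0.27) in YH to YL, or -0.84 without YL1 and -0.14 without YL2. EIF2AK4 (GCN2), the kinase that answers to amino acid shortage, was at 1.85 and 3.91 (TH), 1.71 and 2.83 (TL), 3.83 and 3.82 (YH) and 3.60 and 3.49 FPKM (YL), with TL below YL with a log2 fold change of -0.50 (SE 0.31), or -0.25 without TL1 and -0.75 without TL2. EIF2AK2 (PKR), the kinase that answers to double-stranded RNA, has 2 rows at the same locus (chr3:109622368-109667785), neither of which passed the filter. The rows were at 0.217 to 0.889 and 0.231 to 0.917 FPKM in 7 libraries, and at 3.92 and 2.81 FPKM in YL1.

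The 10 eIF3 subunits did not share 1 pattern. In TH to TL, 5 had both TH libraries above both TL libraries and 1 had both below (24.0% and 24.5% of all genes tested), and the log2 fold changes ran from -0.38 to 0.78. EIF3I was at 74.2 and 54.4 (TH), 35.7 and 37.5 (TL), 33.2 and 43.3 (YH) and 36.9 and 29.8 FPKM (YL), with TH above the other 6 libraries and a log2 fold change of 0.78 (SE 0.25, adjusted p = 0.327 by limma) in TH to TL, or 0.15 with equal FPKM sums. In TH to YH it was 0.73, or -0.22 with equal sums. EIF3J was at 213 and 93.5 (TH), 89.9 and 79.5 (TL), 77.96 and 67.7 (YH) and 122 and 49.4 FPKM (YL), and its difference of 0.95 (SE 0.52) in TH to YH was 0.36 without TH1, 1.54 without TH2 and -0.03 with equal FPKM sums. EIF3K was at 299.5 and 199.8 (TH), 216 and 219.6 (TL), 177 and 219 (YH) and 214 and 181 FPKM (YL). EIF3H was at 188 and 129.7 (TH), 171 and 155 (TL), 194 and 198 (YH) and 198 and 135 FPKM (YL) and EIF3E at 158 and 101 (TH), 166 and 137 (TL), 145 and 127 (YH) and 155 and 123 FPKM (YL), with TH2 the lowest library of both. EIF3L was at 63.2 and 72.1 (TH), 96.3 and 80.7 (TL), 75.5 and 87.3 (YH) and 72.2 and 61.8 FPKM (YL). It was lower in TH than in TL and higher in YH than in YL, without overlap in either. EIF3A, the largest subunit, was at 30.1 and 26.6 (TH), 24.98 and 26.2 (TL), 30.97 and 28.7 (YH) and 26.02 and 22.2 FPKM (YL), and EIF3M at 35.8 and 25.1 (TH), 24.9 and 22.1 (TL), 22.9 and 23.2 (YH) and 24.3 and 24.04 FPKM (YL), where TH1 stood well above the rest. EIF3D stayed between 35.9 and 56.0 FPKM and EIF3G between 44.5 and 81.4 FPKM, each with its highest value in TH1.

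EIF1 was at 859.7 and 580.3 (TH), 495 and 567 (TL), 529.9 and 577 (YH) and 686 and 368 FPKM (YL), with TH1 the highest and YL2 the lowest. Its paralog EIF1B was at 74.6 and 64.8 (TH), 61.8 and 69.1 (TL), 64.3 and 76.5 (YH) and 84.4 and 75.7 FPKM (YL), with TL below YL with a log2 fold change of -0.29 (SE 0.22), or -0.61 with equal FPKM sums. EIF6, which keeps the large subunit from joining too early, was at 57.04 and 47.7 (TH), 33.9 and 35.1 (TL), 31.4 and 37.5 (YH) and 35.6 and 46.9 FPKM (YL). TH was above the other 6 libraries, by a log2 fold change of 0.59 (SE 0.23, adjusted p = 0.289 by limma) in TH to YH, or -0.35 with equal FPKM sums, and with median-ratio scaling TH overlapped with the other 6. TL was below YL with a log2 fold change of -0.24 (SE 0.23), or -0.43 without YL1, -0.05 without YL2 and -0.55 with equal FPKM sums. EIF5B, the GTPase of subunit joining, stayed between 14.4 and 19.0 FPKM in 7 libraries and was at 33.6 FPKM in TH1. EIF5, the GTPase activator of eIF2, was at 0.614 to 1.37 FPKM on a row of 1309 bases with an estimated 15 to 30 reads per library, and reached 1 FPKM only in the TH libraries, through which it passed the filter.

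EIF5A, the hypusine-bearing factor that helps ribosomes past difficult stretches such as runs of proline, was at 378 and 226 (TH), 149 and 155 (TL), 145 and 145 (YH) and 165 and 142 FPKM (YL). Both TH libraries were above the other 6, which lay within 142 to 165 FPKM. Its log2 fold change was 1.01 (SE 0.29, adjusted p = 0.192 by limma) in TH to YH and 0.94 (SE 0.29, adjusted p = 0.314) in TH to TL, or 0.64 and 0.57 without TH1 and 0.02 and 0.30 with equal FPKM sums, and -0.01 (SE 0.29) in TL to YL. The row (ENSSSCG00000017939, chr3:139935129-139940520) held an estimated 5282 to 13025 reads per library.

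Of the elongation factors, EEF1B2, a catalytic subunit of the exchange complex of eEF1A, was at 359.8 and 259 (TH), 219.6 and 209.5 (TL), 198 and 229 (YH) and 219 and 222 FPKM (YL). EEF2 was at 319.5 and 382 (TH), 477 and 506 (TL), 565 and 519 (YH) and 554 and 418 FPKM (YL). TH was above all other libraries in EEF1B2 and below all in EEF2. The log2 fold change of EEF1B2 was 0.52 (SE 0.26, adjusted p = 0.372 by limma) in TH to YH and 0.51 (SE 0.26) in TH to TL, and that of EEF2 -0.63 (SE 0.27, adjusted p = 0.310) and -0.49 (SE 0.27), or -1.60 and -1.11 with equal FPKM sums. Without TH1 the values of EEF1B2 were 0.28 and 0.27, and with equal FPKM sums -0.46 and -0.12. The ratio of EEF1B2 to EEF2 was 1.13 and 0.678 in TH and 0.35 to 0.532 in the other 6. EEF1G was at 716 and 545 (TH), 564 and 618 (TL), 613 and 565 (YH) and 708 and 323 FPKM (YL), with its lowest value in YL2 and overlap in all 4 comparisons. EEF2K, the kinase that inhibits eEF2, was at 11.2 to 14.0 FPKM in 6 libraries, 21.6 in YL1 and 9.08 in YL2. EEF1E1, a part of the tRNA synthetase complex that shares the name, stayed at 2.96 to 4.29 FPKM and EEFSEC, the factor for selenocysteine, at 2.46 to 4.46 FPKM.

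EIF4A3, a helicase of the exon junction complex rather than of initiation, was at 7.52 and 7.47 (TH), 7.08 and 6.37 (TL), 5.90 and 8.03 (YH) and 5.06 and 7.07 FPKM (YL). The 4 rows named EIF2C1 to EIF2C4 are Argonaute genes under an older name, not initiation factors, and are members by name only. They were at 0.669 to 8.51 FPKM. EIF2C2 and EIF2C3 were the members closest to the filter besides EIF5, with 6 and 4 libraries at 1 FPKM or more. The 5 rows off X and Y that did not pass it were EIF4E1B, a second row each of EIF2C3 and EIF2S2, and both rows of EIF2AK2, and the last each reached 1 FPKM in 1 library. Without the 4 Argonaute rows the medians of the members were 0.06 in TH to YH, 0.17 in TH to TL, 0.14 in YH to YL and 0.13 in the interaction.

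Of the 53 members, 13 had both TH libraries above the other 6 libraries (10.1% of all genes tested) and 5 had both below (8.06%), and with equal FPKM sums these counts were 0 and 4 (0.336% and 9.64% of all genes). The 13 were EEF1B2, EIF2B3, EIF2D, EIF2S2, EIF3I, EIF3M, EIF4A1, EIF4EBP1, EIF4EBP3, EIF4G1, EIF5, EIF5A and EIF6, and the 5 were EEF2, EIF2AK1, EIF2B1, EIF4A2 and EIF4B. Leaving out the genes that reached 1 FPKM in 1 group only, EIF5 among the members, gave 12 and 5 of 52 members (9.79% and 8.1% of 11771 genes). With median-ratio scaling the counts were 11 and 5 (7.81% and 10.9% of all genes), with the same 5 below. With FPKM as deposited, the summed marker lists of 4 other cell types were also higher in both TH libraries than in the other 6. The marker sums were not rescaled. Of the atrial markers, 5 of 7 were found, at a summed 5383 to 6616 FPKM in TH against 1485 to 2532 in TL, 609 to 1036 in YH and 403 to 2612 in YL. The smooth muscle markers (4 of 5 found) were at 304 to 327 FPKM in TH against 184 to 199.8 in TL, 129 to 185 in YH and 81.7 to 89.7 in YL. The red cell markers (4 of 4 found) were at 1625 to 3089 FPKM in TH against 1233 to 1400 in TL, 1028 to 1061 in YH and 528 to 631 in YL. The skeletal muscle markers (5 of 8 found) were at 22300 to 31310 FPKM in TH against 12640 to 18260 in TL, 10580 to 13320 in YH and 7063 to 15810 in YL. The leukocyte markers (6 of 6 found) were lowest in TH, at 10.6 to 12.1 FPKM against 12.2 to 34.8 in the other 6. The fibroblast markers (7 of 7 found) were at 198 FPKM in TH1 and 695 in TH2 against 228 to 811 in the other 6, and the endothelial markers (4 of 5 found) at 110 to 131 FPKM in TH against 62.9 to 119. No found marker of these 7 lists was at 0 in every library. Under 0.1 FPKM in every library but YL2 were 2 of the 5 found skeletal muscle markers and 1 of the 4 red cell markers. Those sums therefore rest on the other markers found. The part of the listed cell types in the differences of TH was not tested.

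The libraries of TH did not contribute equally, as the plot of deviations shows. TH1 held the highest value of 21 members and the lowest of 13, and the deviations of the members from their own means had an SD of 0.66 on the log2 scale there, against 0.13 to 0.33 in the other 7 libraries. Over all genes tested this SD was 0.67 in TH1, 0.79 in YL2 and 0.42 to 0.48 in the rest, so in TH1 the members spread about as widely as the genes at large and in each other library less widely. YL2 held the lowest value of 16 members and YH2 the highest of 14 and the lowest of 0. The summed FPKM of the members was 4910 in TH1, 3219 in YL2 and 3834 to 4363 in the other 6.

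**Figure D4:**
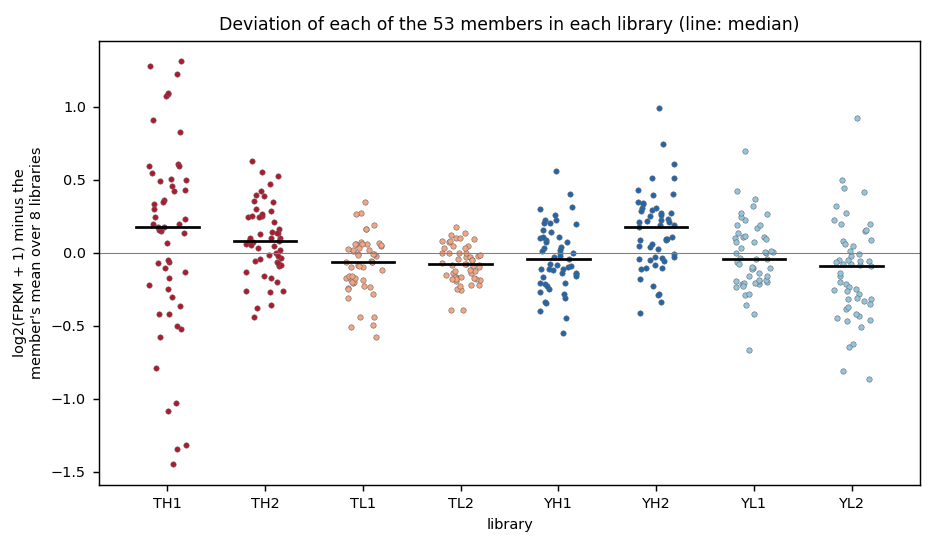
Deviation of log2(FPKM + 1) of each member from its own mean over the 8 libraries, by library. Each point is 1 of the 53 members, the black lines are medians, and the horizontal position within a library is random. Points spread most in TH1 (SD 0.66) and least in TL2 (SD 0.13).

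Several members belong to the class of mRNAs with a 5′ terminal oligopyrimidine tract (TOP), whose translation mTORC1 controls together with that of the ribosomal proteins. Of 10 listed TOP members, 7 were tested, and their log2 fold changes in TH to YH ran from -1.63 for EIF4B to 0.52 for EEF1B2, with 2 above 0 and a median of -0.10. The 78 rows of cytosolic ribosomal proteins had a median of 0.81 in the same comparison and 76 above 0. Without TH1 the medians of the TOP members and the ribosomal proteins were -0.42 and 0.42, and without TH2 0.01 and 1.21. With equal FPKM sums they were -1.06 and -0.17. In TH to TL the medians were -0.06 and 0.74, or -0.33 and 0.35 without TH1 and 0.20 and 1.17 without TH2, and -0.68 and 0.11 with equal FPKM sums. In TL to YL they were 0.06 and 0.05, or 0.23 and 0.21 without YL1, -0.04 and -0.12 without YL2, and -0.27 and -0.28 with equal FPKM sums. In YH to YL the TOP members were the higher list, at 0.26 with 5 of 7 above 0, beside -0.04 with 31 of 78 above 0 for the ribosomal proteins. These medians were 0.41 and 0.14 without YL1, -0.03 and -0.17 without YL2, 0.24 and 0.08 without YH1, and 0.25 and -0.15 without YH2. In no comparison was a TOP member called, and the difference between the lists was not tested.

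Genes around the factors, taken from lists of 49 genes with 43 rows tested, were not called either: 0 of 43 passed in each comparison by limma. At an unadjusted p under 0.05 there were 2 higher and 7 lower in TH to YH (7.71% and 8.47% of all genes), 2 and 0 in TL to YL (5.9% and 3.04%), 0 and 4 in TH to TL (5.81% and 5.53%), 1 and 0 in YH to YL (4.39% and 1.58%), and 0 and 6 in the interaction (3.78% and 7.16%). Among 7 genes of the stress response that follows eIF2 phosphorylation, 4 had both TH libraries above both YH libraries and 1 had both below (25.2% and 27.3% of all genes tested). ATF3 had the largest differences, at 38.8 and 50 (TH), 144 and 179.6 (TL), 5.24 and 9.16 (YH) and 13.5 and 5.17 FPKM (YL). Both Tibetan groups were above both Yorkshire groups, by log2 fold changes of 2.50 (adjusted p = 0.0905 by limma) in TH to YH and 4.10 (adjusted p = 0.12) in TL to YL, which with equal FPKM sums were 1.39 and 3.58. PPP1R15A (GADD34), the phosphatase subunit that reverses eIF2 phosphorylation, was at 49.7 and 37.97 (TH), 42 and 38.7 (TL), 13.8 and 22.4 (YH) and 23.5 and 11.96 FPKM (YL). ATF4, the transcription factor translated when eIF2 is phosphorylated, was at 276 and 192 (TH), 128 and 188 (TL), 121 and 166 (YH) and 213 and 85.4 FPKM (YL). Its TH libraries were above both YH and both TL libraries, by log2 fold changes of 0.69 and 0.56 (adjusted p = 0.496 and 0.706 by limma), or 0.43 and 0.30 without TH1 and -0.29 and -0.07 with equal FPKM sums. ASNS, asparagine synthetase and a target of ATF4, went the other way, at 2.83 and 2.56 (TH), 6.04 and 4.73 (TL), 3.89 and 6.72 (YH) and 3.33 and 4.24 FPKM (YL). Its TH libraries were the lowest of the 8, with log2 fold changes of -0.73 in TH to YH, or -0.40 without YH2, and -0.78 in TH to TL (adjusted p = 0.273 and 0.357 by limma). The other 3, PPP1R15B, DDIT3 and TRIB3, were at 0.34, 0.42 and 0.14 in TH to YH, and at -0.33, -0.32 and -0.18 with equal FPKM sums. DDIT3 was at -0.05 without TH1 and TRIB3 at -0.25 without YH1.

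Of the 14 tested genes between mTORC1 and translation, LARP1, which binds TOP mRNAs, had the largest difference, at 2.88 and 7.11 (TH), 8.05 and 9.08 (TL), 10.7 and 12.5 (YH) and 5.15 and 11.8 FPKM (YL), a log2 fold change of -1.16 in TH to YH (adjusted p = 0.282 by limma), or -0.63 without TH1. MTOR itself stayed at 4.64 to 6.94 FPKM. Of 5 poly(A)-binding genes, PAIP2, an inhibitor of the poly(A)-binding protein, was at 44.6 and 56.0 FPKM in TH and 73.6 to 87.6 in the other 6 (log2 fold change -0.76 in TH to YH, adjusted p = 0.188 by limma, or -1.64 with equal FPKM sums). PABPC1, the poly(A)-binding protein, was at 106 and 124 (TH), 69.8 and 82.1 (TL), 68.1 and 97.97 (YH) and 72.7 and 107 FPKM (YL). Its TH libraries were above both YH and both TL libraries, with log2 fold changes of 0.48 and 0.59, or -0.47 and -0.03 with equal FPKM sums, and 0.22 in TH to YH without YH1. In this list 1 gene was higher and 3 were lower in both TH than in both YH libraries (25.2% and 27.3% of all genes tested). Of the enzymes that place hypusine on eIF5A, DHPS was at 15.1 to 23.6 FPKM and DOHH at 7.82 to 14.8 FPKM, with log2 fold changes of 0.06 and 0.43 in TH to YH, or -0.10 and 0.13 without TH1. With equal FPKM sums these were -0.78 and -0.38. Of 8 mitochondrial factors, 3 were lower and 1 was higher in both TH than in both YH libraries (27.3% and 25.2% of all genes tested). The lower ones were the elongation factor GFM1, the exchange factor TSFM and the initiation factor MTIF2, with log2 fold changes of -0.62, -0.67 and -0.39, or -0.58, -0.37 and -0.31 without TH1 and -1.28, -1.21 and -0.95 with equal FPKM sums. The higher one was the release factor MTRF1L, at 0.33, or 0.20 without TH1, 0.19 without YH1 and -0.33 with equal FPKM sums. The termination and recycling factors ETF1, GSPT1 and ABCE1 had log2 fold changes of 0.05, 0.05 and 0.13 in TH to YH, or -0.78, -0.74 and -0.58 with equal FPKM sums. Of the 4 tested genes of this list, 1 had both TH libraries above both YH libraries and 0 had both below (25.2% and 27.3% of all genes tested). It was DENR, which helps to release the small subunit and its tRNA after termination, at 10.04 and 7.30 (TH), 6.62 and 5.25 (TL), 5.59 and 5.58 (YH) and 6.28 and 7.45 FPKM (YL). Its log2 fold change was 0.54 (adjusted p = 0.312 by limma), or 0.33 without TH1 and -0.23 with equal FPKM sums.

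EEF1D, a further exchange subunit, and EIF1AD have no gene name in the deposited table and are outside the rule. Their symbols came from a table of gene names. EEF1D was at 132 and 67.6 (TH), 68.6 and 65.7 (TL), 60.6 and 57.3 (YH) and 78.6 and 50.3 FPKM (YL), again with TH1 the highest library. EIF1AD was at 4.18 and 3.00 (TH), 3.54 and 3.65 (TL), 3.66 and 4.24 (YH) and 3.91 and 4.17 FPKM (YL).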

How the data were processed

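Heart RNA of male pigs aged 6 months was sequenced in 8 libraries, 2 for each of 4 groups, with 4 pigs pooled per library. The authors aligned the reads to the pig genome Sscrofa10.2 with TopHat2 2.0.9, and the deposited FPKM values come from Cufflinks per their methods. The columns named as counts in the deposited table hold values that are not whole numbers, a scaled signal, and served only to estimate depth: each value was divided by the commonest low value of its library, taken as 1 read, so the reads given are estimates. The FPKM columns of the 4 groups were read from the table of all libraries, and 8 further columns, the authors' group values and ratios between groups, were not used. Genes with at least 1 FPKM in 2 libraries were tested on log2(FPKM + 1) with limma 3.58.1 in R 4.3.3, in 1 fit of 8 libraries with a mean trend and Benjamini-Hochberg adjustment over 11913 genes. The p-values measure only the spread between pools. Any member could be named in the account of its role. The members given library by library include, in each comparison, those with the largest differences in each direction among members whose libraries do not overlap. They also include the 10 highest means, paralog sets and the eIF2 kinases. Genes outside the members were named for their role or size of difference after their values were seen. The members and lists were chosen with earlier results of these data known. Alternatives changed the pseudocount, filter, scaling, moderation, libraries fitted and block, and left out each library. The test was also run on simulated data with added changes larger than those of any member, so it was not checked at the members' size of change. No sequences were used here.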

Additional observations from a re-analysis of the deposited data

Results flagged for a closer look

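For 7 members the libraries of the groups compared did not overlap but lay in opposite directions under the same contrast in the 2 breeds or at the 2 altitudes, which is 13.2% of the members beside 15.5% of all genes tested. The difference between the contrasts was tested with limma as the interaction, and 0 of the 7 passed. EIF3L was lower in TH than in TL and higher in YH than in YL, and likewise lower in TH than in YH and higher in TL than in YL, with an interaction of -0.657 on the log2 scale (adjusted p = 0.502 by limma). EIF2AK1 showed the same pattern on both contrasts, at -0.825 (adjusted p = 0.4 by limma). Between altitudes, EIF4B was lower in TH than in TL and higher in YH than in YL, at -1.69 (adjusted p = 0.371 by limma). EIF2AK3 and EIF3M went the other way, at 0.7 (adjusted p = 0.539 by limma) and 0.405 (adjusted p = 0.645 by limma). Between breeds, EIF4E3 was lower in TH than in YH and higher in TL than in YL, at -1.42 (adjusted p = 0.478 by limma), and EIF6 the reverse, at 0.828 (adjusted p = 0.436 by limma). Without TH1 the interaction was -1.09 for EIF4B, -0.69 for EIF4E3, 0.156 for EIF3M and -0.622 for EIF2AK1, without TH2 -2.14 for EIF4E3 and 0.653 for EIF3M, without YL1 1.05 for EIF2AK3, and without YL2 0.351 for EIF2AK3 and 0.636 for EIF6. With equal FPKM sums it was 0.272 for EIF2AK3, -0.178 for EIF3M, 0.207 for EIF6 and -1.24 for EIF3L.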

How the results depend on the processing

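The count of 0 members called held under each alternative fitted, apart from replacing the adjusted p by the unadjusted one at 0.01, which called 2 members in TH to YH and 2 in TH to TL (4.06% and 2.57% of all genes). Scaling moved the median log2 fold change of the members: median-ratio scaling gave -0.0731 in TH to YH and 0.0581 in TH to TL, and equal FPKM sums gave -0.662 in TH to YH, -0.284 in TL to YL, -0.237 in TH to TL and -0.369 in the interaction. Equal FPKM sums moved the medians of all genes to -0.504, -0.228, -0.272 and -0.263 in the same order. The FPKM sums that this scaling makes equal ran from 1.56e+06 in YL2 to 8.56e+06 in TH1. The mitochondrial genome held 57.7% (YH2) to 87.6% (TH1) of each sum. Equal FPKM sums turned the log2 fold change from above to below 0 in 24 members in TH to YH, 23 in TL to YL, 26 in TH to TL and 20 in the interaction. Among them, TH to YH became -0.0294 for EIF3J, -0.347 for EIF6, -0.459 for EEF1B2, -0.223 for EIF3I, -0.356 for EIF2B3 and -0.0619 for EIF2S2, TH to TL became -0.208 for EIF4G1, and TL to YL became -0.0226 for EIF4A1, -0.0155 for EIF2B3, -0.0688 for EIF4E3 and -0.0926 for EIF2B5. The cause was not tested. Among members with a mean of at least 10 FPKM the median in TH to TL was 0.258. Leaving out each library in turn gave medians from -0.069 (without YH1) to 0.161 (without YH2) in TH to YH, 0.134 to 0.278 in TH to TL, 0.0327 to 0.238 in YH to YL and -0.0471 to 0.227 in the interaction. With a replicate block 0 members were called and the median in TH to TL stayed at 0.167. Correlations of same-numbered deviations over genes ran from -0.084 to 0.118. They show no common deviation by replicate number but cannot exclude a shared batch. Tests on counts were not run, because whole reads could not be recovered for every value. Of the low values, 99.75% (YH2) to 99.90% (YL1) were near whole multiples of the commonest low value of their library.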
